A study of Mus musculus with 302 samples.

Results

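Solute carriers are membrane proteins that move sugars, amino acids, bile acids, fatty acid derivatives, metals and ions across the cell and organelle membranes. In the liver they bring bile acids and organic anions in from the blood, release glucose, exchange amino acids, and pass citrate, carnitine esters and urea cycle intermediates through the inner mitochondrial membrane. Many are made by hepatocytes, while others are known from macrophages, bile duct cells or red cell precursors, so a measurement of whole liver mixes several sources. The solute carrier genes were taken as all probes with a single gene whose symbol begins with Slc or Slco and a family number, without Slco1b2 and Slc4a1. They made up 291 of the 23512 probes used, for 260 of 10817 named genes, and all 291 passed the filter on missing values. The symbols of Slc9a3r1, Slc9a3r2 and Slc4a1ap match the rule although their products are scaffold and adaptor proteins and no transporters.

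Livers came from 302 F2 mice of an intercross of C57BL/6J with C3H/HeJ mice, both inbred, in both directions of the cross, in a series on the genetics of gene expression. All were fed chow (4% fat) up to the age of 8 weeks and a Western diet with 42% fat and 0.15% cholesterol for the next 12 weeks, and were killed at 20 weeks after a 12 h fast. Each 2-colour array set the RNA of 1 mouse (Cy3) against a common pool (Cy5). The labels give 1 group, with no genotype, sex or cross direction per mouse, so the mice were described by their spread and by which genes moved together. Values were read as the log10 ratio of mouse to pool, a base and direction that are likely but not stated. Array medians lay between -0.0115 and 0.0172, and the least similar pair of arrays had r = -0.51 across probes. The Y-linked gene Eif2s3y left a gap between -0.968 and -0.437, and mouse numbers ran from 51 to 362. The mean of each of 4 blocks was removed from every probe: Eif2s3y below -0.8 with numbers up to 212 (77 mice) or above (65 mice), and Eif2s3y above -0.8 with numbers up to 212 (82 mice) or above (78 mice). A ratio to a pool gives no level, so no gene's abundance could be set against another's and the tissue label could not be checked by marker levels. Fewer cells of a type and less RNA per cell cannot be told apart in these livers.

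The SD of a probe over the 302 livers was its spread, and a probe counted as varying widely where the lower bound of its 95% interval (from mice resampled within blocks) was over 2 times the median SD of all probes, a threshold of 0.123 in log10 units or 1.33-fold. Of the 291 solute carrier probes, 29 varied widely (9.97%), against 6.56% of all probes. Their median SD was 0.0710, against 0.0616 over all probes. Just inside the threshold stood Slc41a1 (SD 0.142) and Slc37a2 (SD 0.139), and just outside it Slc44a3 (SD 0.131) and Slc16a1 (SD 0.128), whose lower bounds of 0.121 and 0.117 missed it. Slco1a5, Slco4c1, Slc38a1 and a second probe of Slco1a4 had SDs between 0.137 and 0.201 but did not count, because their lower bounds were between 0.0677 and 0.111.

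**Figure D1:**
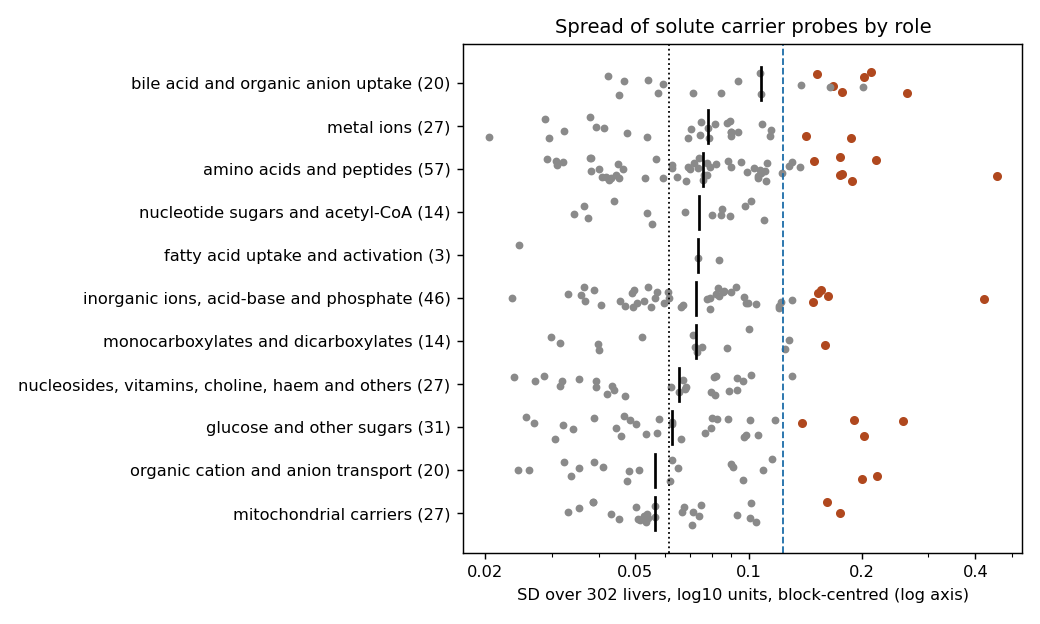
SD of each solute carrier probe of the 11 role lists over 302 livers (x axis, log10 units on a log scale, block means removed), 1 point per probe in rows by role with the number of probes in brackets. Orange points vary widely, short black lines are row medians, the dotted line is the median of all probes (0.0616) and the dashed line the threshold (0.123); of the 11 rows drawn, bile acid and organic anion uptake has the highest median, 0.108. Slc66a1 and Slc66a2, which are in no role list, and the 3 proteins that are no transporters are not drawn.

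Transporters of bile acids and organic anions had the highest median SD of the 11 role lists, 0.108 over 20 probes, and 6 of the 20 varied widely. Slc10a6, a carrier of sulphated steroids, ran from -0.599 to 0.618 about a median of 0.0238 log10 units and had an SD of 0.264 (95% interval 0.246 to 0.279, n = 302). Slco1a1, an organic anion uptake protein of the hepatocyte's blood side, ran from -0.801 to 0.606 about a median of -0.0134, with an SD of 0.211. Its paralog Slco1a4 ran from -0.609 to 0.495 about a median of -0.00259, with an SD of 0.202. The livers of each of these 3 genes formed 1 broad distribution, although Slc10a6 had separate clusters when the means of the 2 Eif2s3y clusters alone were removed. Without any centring, both Slc10a6 and Slco1a1 had separate clusters. Slc10a2, the sodium-dependent bile acid transporter known from ileum and bile duct, had an SD of 0.177, Slco6b1 had 0.167, and Slc51b, a subunit of the basolateral bile acid exporter, had 0.152. Slco1a6 had the smallest SD of the list, 0.0422. Slc66a1 and Slc66a2, which belong to none of the lists, had SDs of 0.125 and 0.103.

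The related Slc22 family of organic cation and anion transporters was quieter, with a median SD of 0.0566 over 20 probes of which 2 varied widely. Slc22a27 ran from -0.544 to 0.785 about a median of 0.00538, with an SD of 0.220, and Slc22a26 ran from -0.838 to 0.889 about a median of 0.00941, with an SD of 0.20. Both lie on chromosome 19 and both carried most of their spread in the blocks: before the block means were removed their SDs were 0.494 and 0.744, so 55.5% and 73.1% of the SD went with the blocks. Slco1a1 lost 40.5% in the same way, and 19 of the 29 widely varying genes lost less than 10%. Within blocks the SD of Slco1a1 was 0.256 and 0.272 in the 2 blocks above the Eif2s3y gap and 0.131 and 0.121 in the 2 below it, and that of Slc22a27 was 0.25 and 0.291 above it and 0.144 and 0.139 below it. The difference between these blocks was not tested. The smallest SD of the family, 0.0244, was that of 1 of 2 probes of Slc22a13, whose other probe had 0.0619.

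Among 57 probes for amino acid and peptide transporters 7 varied widely, and the median SD was 0.0757. Slc15a2, a proton-coupled peptide transporter best known from kidney, had the largest SD of all solute carriers, 0.457 (0.431 to 0.474). It ran from -0.908 to 0.869 about a median of 0.121, and the 95th percentile was 19.7-fold above the 5th. Slc38a2, a sodium-coupled carrier of neutral amino acids, ran from -0.560 to 0.596 about a median of -0.00984 and had an SD of 0.218. The livers spread evenly on both sides of the median in Slc38a2, while those of Slc15a2 fell into 2 clusters that are described below. The light chains Slc7a8 (SD 0.188) and Slc7a7 (SD 0.149), the arginine and lysine carrier Slc7a2 (SD 0.177), the branched-chain amino acid carrier Slc43a1 (SD 0.175) and the heavy chain Slc3a1 (SD 0.175) were the others. Slc6a21 had the smallest SD, 0.0291.

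Sugar transporters had a median SD of 0.0626 over 31 probes, and 4 varied widely. Slc37a1, a sugar phosphate antiporter, ran from -0.668 to 0.723 about a median of 0.00186, with an SD of 0.257. Slc2a4, the insulin-responsive glucose transporter of muscle and fat, had an SD of 0.203, and the fructose transporter Slc2a5 had 0.190. Slc37a2, another sugar phosphate antiporter, was the fourth with 0.139. The main hepatocyte glucose transporter Slc2a2 (SD 0.106) and the glucose 6-phosphate translocase Slc37a4 (SD 0.0802) did not pass, and the smallest SD, 0.0256, was that of 1 of 2 probes of Slc5a12 (the other 0.0571).

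Carriers of inorganic ions, acid-base equivalents and phosphate made up 46 probes with a median SD of 0.0724, and 5 varied widely. Slc12a1, the sodium-potassium-chloride cotransporter of the kidney's loop of Henle, ran from -2.14 to 1.86 about a median of -0.0435, with an SD of 0.421 (0.344 to 0.492). The deposited values have limits of -2 and 2, and the part of these limits in its range and SD was not tested. Most livers sat near the median, and the SD rested on few of them: 13 livers lay above 0.7 and 9 below -0.7. Its SD was 0.253 and 0.318 in the 2 blocks with numbers up to 212 (Eif2s3y above and below the gap), and 0.567 and 0.484 in the 2 with higher numbers. The others were the chloride-bicarbonate exchanger Slc26a3 (SD 0.163), the phosphate carriers Slc34a2 (SD 0.155) and Slc20a1 (SD 0.148) and the anion exchanger Slc26a4 (SD 0.153). The smallest SD, 0.0236, was that of 1 of 2 probes of Slc26a11. The other had 0.0778, above the list median, and the 2 probes had r = -0.09.

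Of 27 metal ion probes 2 varied widely, the zinc importer Slc39a2 (SD 0.187) and the magnesium transporter Slc41a1 (SD 0.142), with a list median of 0.0782. The smallest SD was that of the zinc carrier Slc30a3, 0.0204. Of 27 mitochondrial carrier probes 2 varied widely, the ornithine carrier Slc25a15 of the urea cycle (SD 0.175) and the carnitine-acylcarnitine carrier Slc25a20 (SD 0.162), although the list median, 0.0563, was the lowest. Slc16a6, a monocarboxylate carrier that exports ketone bodies from the zebrafish liver, was the only 1 of 14 mono- and dicarboxylate probes that varied widely (SD 0.160, list median 0.0724), and the smallest SD there, 0.0299, was that of 1 of 2 probes of Slc16a9 (the other 0.0719). None of 27 probes for nucleosides, vitamins, choline and haem passed (median 0.0655, from 0.0239 in Slc46a2 to 0.131 in Slc44a3). None of 14 probes for nucleotide sugars and acetyl-CoA passed (median 0.0739, from 0.0344 in 1 of 3 probes of Slc35e3, whose widest had 0.0853, to 0.110 in Slc35c1), and none of the 3 for fatty acid uptake and activation (Slc27a5 0.0833, Slc27a2 0.0734 and Slc27a1 0.0246). The values carry no signal over background, so a small SD at a dim spot could not be told from a small SD of an abundant RNA.

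**Figure D2:**
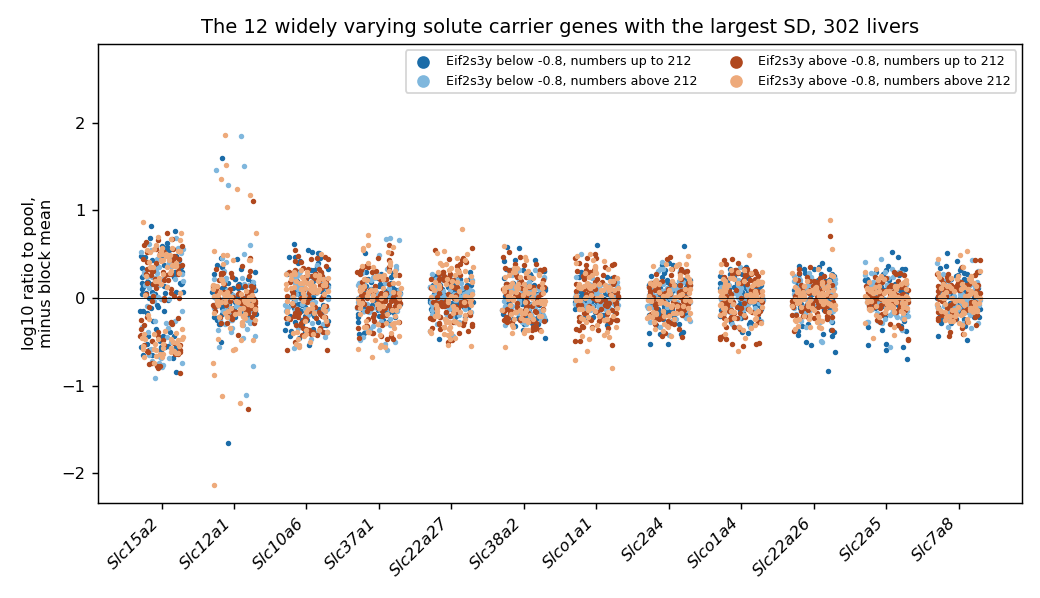
Block-centred log10 ratio to the pool (y axis) for the 12 widely varying solute carrier genes with the largest SD, 1 point per liver coloured by block, 302 livers per gene. Slc15a2 forms 2 bands, Slc12a1 has a dense centre with 13 livers above 0.7 and 9 below -0.7, and the other 10 genes form single bands with SDs between 0.188 and 0.264.

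Each probe was also fitted with 1 against 2 Gaussian components. Of the 291 solute carrier probes 6 had separate clusters (2.06%), against 2.27% of all probes. Slc15a2 parted into 118 livers at a mean of -0.503 and 184 at a mean of 0.327, a 6.76-fold step that was 4.07 times the SD within a cluster. Both clusters were present in each block, with 31 and 35 livers in the lower cluster above the Eif2s3y gap and 29 and 23 below it. A model with 3 equally spaced components was no better. Slc15a2 was the only 1 of the 6 whose density had a dip between the clusters.

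Slc26a3, a chloride-bicarbonate exchanger of the colon, had a main cluster of 273 livers and a tail of 29 livers 2.87-fold higher, and the tail fell on 13 mice with numbers up to 212 and 16 with higher ones. A fit with 3 components was better for it and put 264, 30 and 8 livers at equally spaced levels. The other clusters were small steps at low spread. Slc30a9 had 36 livers that were lower (1.44-fold step), the urea transporter Slc14a1 had 20 that were higher (1.45-fold), the nucleoside carrier Slc28a1 had 18 that were higher (1.26-fold), and the vesicular GABA transporter Slc32a1 had 26 that were higher (1.23-fold). For Slc14a1 too a fit with 3 components was better, with 2, 278 and 22 livers. The 26 livers of Slc32a1 were 19 of mice with numbers up to 212 and 7 of mice with higher ones (Fisher's exact test, p = 0.039, and 0.23 adjusted over the 6 genes). The clusters of Slc15a2, Slc26a3, Slc14a1 and Slc32a1 were found again without the 10 arrays of widest spread, and those of Slc30a9 and Slc28a1 were not.

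**Figure D3:**
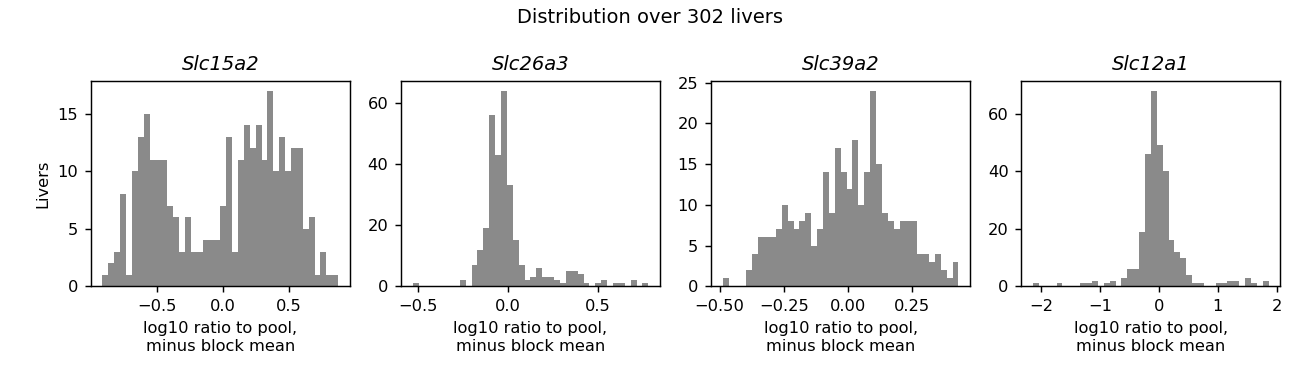
Histograms of the block-centred log10 ratio to the pool over 302 livers for Slc15a2, Slc26a3, Slc39a2 and Slc12a1 (x axis log10 units, y axis number of livers). Slc15a2 has 2 peaks with a dip between them, Slc26a3 a single peak with a tail of 29 livers to the right, Slc39a2 a broad distribution, and Slc12a1 a narrow peak with livers far out on both sides.

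The gene whose probe was most like each widely varying transporter is given with Pearson's r over the 302 livers, as a description without a test. All arrays share the pool, and the first principal component of the block-centred values held 10.8% of the variance. For 6 of the 29 transporters the most similar gene lay on the same chromosome. No such count was made for other probes, so whether this share is particular to transporters was not tested. Slc15a2 on chromosome 16 was most like Hacd2 (r = 0.54), an enzyme of fatty acid elongation 29 genes away, and next like Cd47 (r = -0.49), also on chromosome 16. Slc39a2 on chromosome 14 was most like Supt16 (r = 0.74), a histone chaperone 10 genes away, and Ngdn (r = 0.72) on the same chromosome. Slc7a7 was most like the matrix protease Mmp14 (r = 0.70), 2 genes away on chromosome 14, and next like the myeloid adaptor Tyrobp (r = 0.70). Slc2a5 and Map3k6 (r = -0.52), Slc3a1 and the protease gene Prss21 (r = 0.66), and Slc26a4 and the corticosteroid carrier gene Serpina6 (r = 0.49) were the pairs that lay farther apart, 280 to 801 genes.

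The other transporters were most like genes on other chromosomes. Slco1a1 followed the steroid dehydrogenase Hsd3b5 (r = 0.83), and Slc22a27 ran against the growth factor receptor Egfr (r = -0.76). Slc10a6 followed the activin subunit Inhbb (r = 0.84), Slc38a2 the p53-induced gene Trp53inp1 (r = 0.78), Slc20a1 the regulator Ifrd1 (r = 0.77), and Slc25a15 the oxysterol-binding protein gene Osbpl11 (r = 0.79). Slc25a20 had the largest r of the 29, 0.90 with the trafficking subunit Trappc3. Slc7a8 (r = 0.77) and Slc37a2 (r = 0.80) were both most like Apbb1ip, an adaptor of blood cells. Slc43a1 followed the coagulation factor F7 (r = 0.75), Slco1a4 the kinase Rps6kb2 (r = 0.69), Slc16a6 the lipid droplet gene Hilpda (r = 0.69), and Slc41a1 the ubiquitin ligase Trim11 (r = 0.68).

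Weaker likeness was found for the rest. Slc51b was most like Rras (r = 0.66), Slc7a2 like Olfr1411 (r = 0.64), Slc10a2 like the tight junction gene Cldn3 (r = -0.63), Slc37a1 like the magnesium transporter Slc41a1 (r = 0.61), and Slc34a2 like the clock-controlled protease gene Usp2 (r = -0.58). Slco6b1 (Olfr1302, r = 0.56), Slc2a4 (Nudt19, r = 0.53), Slc22a26 (Prdm1, r = 0.51) and Slc12a1 (Gucy2g, r = 0.43) had no gene closer than these. Of the genes with separate clusters, Slc26a3 was most like the cholecystokinin receptor Cckar (r = 0.83, Spearman's rho = 0.58). Next came genes known from mucosal epithelia, Muc3 (r = 0.79, rho = 0.48), Dmbt1 (r = 0.74, rho = 0.48) and Muc4 (r = 0.69, rho = 0.43). Their part in the tail of 29 livers of Slc26a3 was not tested. Slc14a1 was most like B4galnt2 (r = 0.58) and next like Slc26a3 (r = 0.55), Cckar (r = 0.49) and Muc4 (r = 0.49). On ranks these 4 were lower, with rho = 0.44, 0.34, 0.31 and 0.37. Slc30a9 was most like the cholesterol exporter Abca1 (r = 0.86), Slc28a1 like Mapk10 (r = 0.75) and Slc32a1 like Dpf1 (r = 0.72).

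Transporters known to act together were compared in 23 measured pairs of 31 listed, with Pearson's r and with Spearman's rho on block-centred values, using 100000 permutations of mice within blocks (two-sided) and the Benjamini-Hochberg adjustment over the 23 pairs. The pairs were chosen with earlier results of these data known, and the probe with the widest SD stood for each gene. In 19 pairs the adjusted p of r was under 0.05. Pairs of unrelated genes were not compared, so no share stands beside this count. At this number of mice an r of 0.122 already passed. The strongest was that of the mitochondrial dicarboxylate carrier Slc25a10 and the oxoglutarate carrier Slc25a11, with r = 0.577 and rho = 0.556, and with r between 0.353 and 0.773 within blocks. The urea cycle carriers Slc25a13 and Slc25a15 had r = 0.471 and rho = 0.439 (0.324 to 0.597 within blocks). The citrate carrier Slc25a1 and ATP citrate lyase, Acly, which splits the exported citrate, had r = 0.383 and rho = 0.299 (0.104 to 0.654 within blocks). The carnitine-acylcarnitine carrier Slc25a20 and its matrix enzyme Cpt2 had r = 0.308 and rho = 0.310 (0.173 to 0.464). All 4 had an adjusted p of 2.1e-05, which belongs to the smallest p these permutations can give (1e-05), and without the 2 most extreme mice of the first gene r was 0.564, 0.464, 0.370 and 0.297.

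Iron carriers followed partner genes of iron handling and inflammation. The importer of zinc and iron Slc39a14 and the acute phase gene Saa1 had r = 0.514 and rho = 0.555 (0.430 to 0.644 within blocks, 0.531 without the 2 farthest mice). The iron exporter Slc40a1 and haem oxygenase, Hmox1, had r = 0.453 and rho = 0.454 (0.354 to 0.564, 0.446). The mitochondrial iron importer Slc25a37 and the red cell haem enzyme Alas2 had r = 0.274 and rho = 0.259 (0.121 to 0.402, 0.30). These values are those of 1 of 2 probes of Slc25a37, which had r = 0.21 between them. The phagosome metal carrier Slc11a1 and the macrophage gene Cd68 had r = 0.407 and rho = 0.335, but r ran from -0.0811 in 1 block to 0.572 in another. The adjusted permutation p of r was 2.1e-05 in each of these 4 pairs.

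In bile acid and fatty acid handling, the ligases Slc27a2 and Slc27a5, which activate fatty acids and bile acids, had r = 0.419 and rho = 0.385 (0.285 to 0.581 within blocks, adjusted permutation p = 2.1e-05). The bile acid uptake carrier Slc10a1 had r = 0.215 with Slc27a5 (rho = 0.190, adjusted permutation p = 0.00031) and r = 0.193 with Slco1a1 (rho = 0.188, adjusted permutation p = 0.00096). The paralogs Slco1a1 and Slco1a4 moved apart, with r = -0.142 and rho = -0.131 (adjusted permutation p = 0.034), from -0.354 to -0.0180 within blocks. The adjacent paralogs Slc22a26 and Slc22a27 had r = 0.305 and rho = 0.271 (adjusted permutation p = 2.1e-05). Within blocks r was 0.448 and 0.618 above the Eif2s3y gap and -0.0588 and -0.0719 below it, a difference that was not tested. The adjacent phosphate and urate carriers Slc17a1 and Slc17a3 had r = 0.241 (rho = 0.207, 0.0854 to 0.446 within blocks, adjusted permutation p = 5.3e-05).

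For glucose output, Slc2a2 and Slc37a4 had r = 0.309 and rho = 0.317 (0.0156 to 0.474 within blocks, adjusted permutation p = 2.1e-05). Slc37a4 and its partner phosphatase G6pc had r = 0.122 and rho = 0.122 (adjusted permutation p = 0.036), from -0.209 to 0.366 within blocks. The carnitine carriers of the cell surface and the mitochondrion, Slc22a5 and Slc25a20, had r = 0.194 and rho = 0.184 (0.109 to 0.319, adjusted permutation p = 0.0014). Once the first principal component was removed the adjusted permutation p was over 0.05 for Slc10a1 with Slc27a5 (r = 0.112), Slc10a1 with Slco1a1 (r = 0.00535), Slc22a5 with Slc25a20 (r = 0.0962) and Slc17a1 with Slc17a3 (r = 0.103). The r of Slc25a20 with Cpt2 fell to 0.129, that of Slc11a1 with Cd68 was 0.244 and that of Slco1a1 with Slco1a4 was -0.331, and these 3 pairs passed. With centring by the 2 Eif2s3y clusters alone it was over 0.05 for Slco1a1 with Slco1a4 (r = -0.102) and Slc37a4 with G6pc (r = 0.0839).

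Heavy and light chains of the amino acid exchangers mostly did not pass. Slc3a2, the heavy chain of several exchangers, had r = -0.0301 with Slc7a5 (adjusted permutation p = 0.63), 0.0249 with Slc7a7 (adjusted permutation p = 0.67) and 0.0572 with the cystine exchanger Slc7a11 (adjusted permutation p = 0.36). With Slc7a8 it had r = 0.225 and rho = 0.204 (adjusted permutation p = 0.00013), from -0.130 to 0.393 within blocks. The kidney pair Slc3a1 and Slc7a9 had r = -0.0970 (adjusted permutation p = 0.11). Slc3a2 and Slc38a2, both known targets of the amino acid stress factor ATF4, had r = 0.255 and rho = 0.275 (0.103 to 0.495, adjusted permutation p = 3.8e-05).

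Metabolic and cell type programmes were summarised as the mean standardized value of a gene list from which solute carriers had been left out, and every probe was fitted on each score with limma. A transporter was counted where the Benjamini-Hochberg adjusted p over all probes was under 0.05 and the partial r at least 0.3 in size. Up to 8 transporters per direction and list, and as many for the mouse number described last, were looked at more closely, 186 relations in all. They were picked for the size of r in the same livers, so no further p is given for them. Leaving out the 2 farthest mice moved their r by at most 0.0718, and in 183 of the 186 the 4 blocks had the same sign of r. The exceptions were Slco1a1 with the macrophage score, Slc41a1 with the acute phase score and Slc26a3 with the bile duct score. Both counts describe the livers in which the relations were picked and are no separate check of them. Several scores moved with the first principal component (macrophage r = 0.67, lipid droplet 0.66, stellate 0.57, ATF4 0.50, endothelial 0.49), and how much of a relation this component carries is given by fits that hold it as a covariate.

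**Figure D4:**
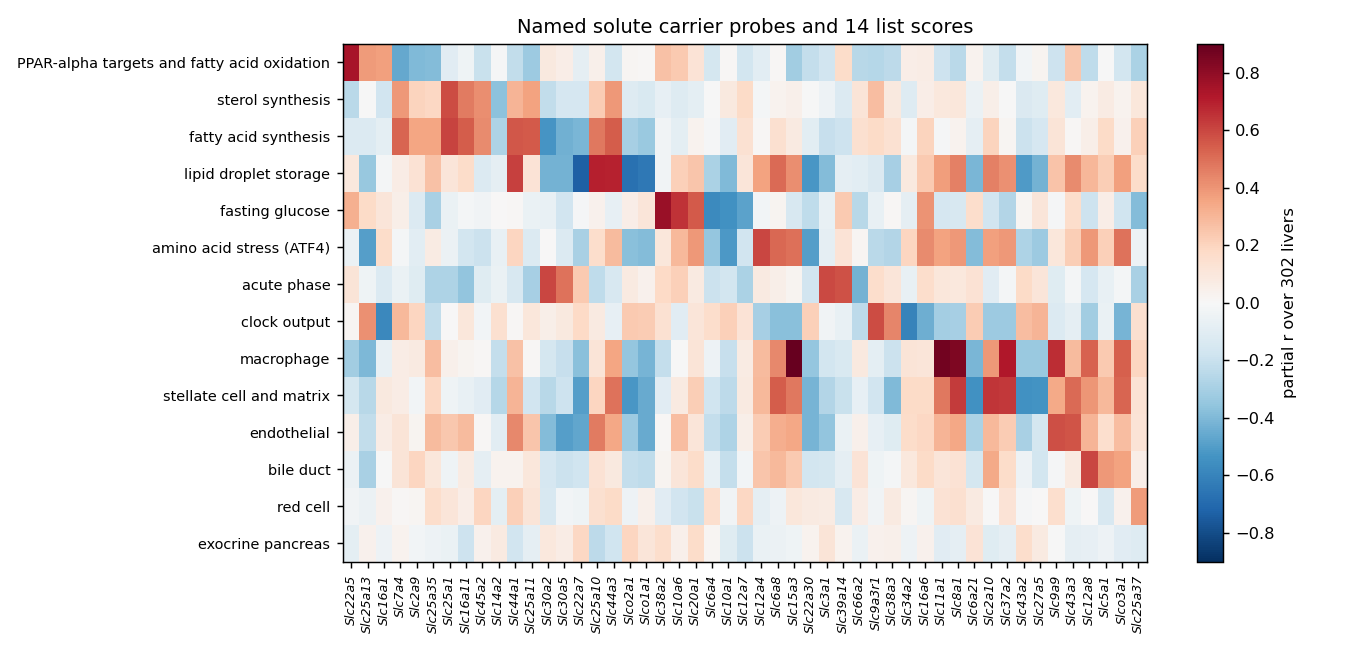
Partial r over 302 livers (colour, red positive and blue negative) between named solute carrier probes (columns) and 14 list scores (rows), in the order in which the lists are described in the report. The deepest red squares are Slc15a3, Slc11a1 and Slc8a1 with the macrophage score (0.90, 0.87 and 0.84), and the deepest blue is Slc22a7 with lipid droplet storage (-0.74).

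The score of PPAR-alpha targets, mostly genes of fatty acid oxidation (12 of 17 listed genes measured), was followed by 20 of 291 solute carrier probes, against 5.16% of all probes. The score itself had r = -0.34 with the macrophage score. In the positive direction there were 8, against 3.21% of all, and in the negative 12, against 1.95%. Slc22a5, the carnitine importer of the cell surface, stood apart with a partial r of 0.74 (rho = 0.69, 0.59 to 0.81 within blocks) and a slope of 0.0716 ± 0.0037 log10 units per SD of the score (SE). The aspartate-glutamate carrier Slc25a13 (r = 0.38) and the lactate and ketone carrier Slc16a1 (r = 0.37) came next, and Slc25a20 had r = 0.33, which fell to 0.26 and missed the size limit with the first principal component as a covariate. Lower with a higher score were Slc7a4 (r = -0.46), the urate transporter Slc2a9 (r = -0.40) and the mitochondrial carrier Slc25a35 (r = -0.39). Slc22a4, the ergothioneine carrier that is the close relative of Slc22a5, ran the other way with r = -0.34.

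The scores of sterol synthesis (13 of 18 genes) and fatty acid synthesis (13 of 14) shared much of their variation, with r = 0.70 between them. The sterol score was followed by 12 solute carrier probes, against 2.54% of all probes, 11 of them positive (1.79% of all) and 1 negative (0.753%). With centring by the 2 Eif2s3y clusters alone the split was 18 positive and 7 negative. The fatty acid score was followed by 26, against 9.03%, 19 of them positive (4.27% of all) and 7 negative (4.77%). The split was even with centring by the Eif2s3y clusters, 24 positive and 24 negative, and was 21 and 13 on ranks. Slc25a1, which exports citrate from mitochondria for both pathways, had the largest r with either, 0.58 (rho = 0.56) and 0.61 (rho = 0.56), and slopes of 0.0327 ± 0.0026 and 0.0340 ± 0.0026 log10 units per SD (SE). Its SD was only 0.0563, so a small spread went with a close relation. Slc16a11, a monocarboxylate carrier, had r = 0.47 and 0.54, and Slc45a2 had 0.42 and 0.42. With fatty acid synthesis Slc45a2 had r = 0.11 and 0.05 in the 2 blocks above the Eif2s3y gap and 0.64 and 0.56 below it, and with sterol synthesis 0.22 and 0.24 above it and 0.65 and 0.45 below it. Slc25a1 too had a lower r with sterol synthesis above the gap (0.45 and 0.39) than below it (0.81 and 0.68). These differences were not tested. The choline transporter Slc44a1 (r = 0.56) and the oxoglutarate carrier Slc25a11 (r = 0.56) followed fatty acid synthesis. Lower with it were the zinc carriers Slc30a2 (r = -0.53) and Slc30a5 (r = -0.43) and the organic anion carrier Slc22a7 (r = -0.41), and lower with the sterol score was the urea transporter Slc14a2 (r = -0.37). The second probes of Slc30a2 and Slc14a2 did not pass with these scores (r = -0.0455 and 0.0963). Slc30a5 (r = -0.29) and Slc22a7 (r = -0.24) missed the size limit once the first principal component was a covariate.

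The score of lipid droplet storage, built on 6 of 10 listed genes, was followed by 72 solute carrier probes, against 20.3% of all probes, with 30 positive (8.46% of all) and 42 negative (11.8%). The score moved with those of the stellate (r = 0.56), endothelial (r = 0.47), ATF4 (r = 0.46) and macrophage (r = 0.37) genes, and their part in what follows was not tested. Higher with it were Slc25a10 (r = 0.70, 0.48 to 0.82 within blocks, slope 0.0701 ± 0.0041), the choline transporter-like Slc44a3 (r = 0.69, 0.63 to 0.73) and Slc44a1 (r = 0.62). Lower were Slc22a7 (r = -0.74, -0.84 to -0.56, slope -0.0844 ± 0.0045), the prostaglandin transporter Slco2a1 (r = -0.67) and Slco1a1 (r = -0.64, slope -0.135 ± 0.0093 log10 units per SD of the score, SE). Slc22a27 rose with the score (r = 0.55, 0.57 and 0.67 within blocks above the Eif2s3y gap and 0.27 and 0.32 below it). With the first principal component as a covariate 36 probes passed, against 9.15% of all probes. Of these, 23 were positive and 13 negative, and 18 of the 36 were among the 72. The 3 higher and the first 2 lower genes still passed (Slc25a10 0.53, Slc44a3 0.44, Slc44a1 0.41, Slc22a7 -0.53, Slco2a1 -0.44), while Slco1a1, at -0.297, fell just short of the size limit.

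The fasting glucose score, made of genes of gluconeogenesis and the fasting response (7 of 9 measured), was followed by 25 solute carrier probes, against 7.39% of all probes, with 17 positive (3.23% of all) and 8 negative (4.16%). With the first principal component as a covariate 24 passed, against 6.52% of all probes, 12 in each direction. Slc38a2, which brings in amino acids such as alanine, had r = 0.78 (rho = 0.76, 0.72 to 0.80 within blocks) and a slope of 0.169 ± 0.0079. Slc10a6 had r = 0.65 with the same size of slope, 0.171 ± 0.0115 log10 units per SD (SE), and the phosphate carrier Slc20a1 had r = 0.55. The liver mitochondrial carrier Slc25a47 (r = 0.53), the ornithine carrier Slc25a15 (r = 0.53) and the glucose transporter Slc2a1 (r = 0.50) followed. Lower with the score were the serotonin transporter Slc6a4 (r = -0.57), the bile acid uptake carrier Slc10a1 (r = -0.55, -0.57 to -0.52 within blocks) and the potassium-chloride carrier Slc12a7 (r = -0.48). The relations of these 9 genes all passed with the first principal component as a covariate, with r = -0.45 in Slc12a7 and 0.76 in Slc38a2.

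The score of amino acid stress genes known as ATF4 targets (9 of 14) was followed by 50 solute carrier probes, against 11.4% of all probes. Of these, 23 were positive (5.47% of all) and 27 negative (5.95%). It moved with the stellate (r = 0.39), macrophage (r = 0.35) and bile duct (r = 0.30) scores, whose part was not tested. With the first principal component as a covariate 18 passed, against 2.88% of all probes. Higher were the potassium-chloride carrier Slc12a4 (r = 0.60), the creatine transporter Slc6a8 (r = 0.51) and the lysosomal peptide and histidine carrier Slc15a3 (r = 0.49). Slc15a3 no longer passed with the covariate (r = 0.20), while Slc12a4 (r = 0.44) and Slc6a8 (r = 0.30) did. Lower were Slc10a1 (r = -0.51), Slc22a30 (r = -0.50) and Slc25a13 (r = -0.50), of which Slc25a13 dropped out with the covariate (r = -0.25). The neutral amino acid carrier Slc1a4 had r = 0.44, and 0.26 with the covariate.

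The acute phase score (14 of 16 genes of the inflammatory response of hepatocytes) was followed by 12 solute carrier probes, against 2.64% of all probes, with 10 positive (1.45% of all) and 2 negative (1.19%). The split depended on the processing: it was 11 positive and 14 negative with centring by the Eif2s3y clusters alone, and 9 and 6 on ranks. Zinc carriers were among the higher genes: Slc30a2, which loads zinc into vesicles, had r = 0.60 (0.21 to 0.76 within blocks), Slc39a14 had 0.57 (0.505 to 0.685), and the Golgi zinc carrier Slc30a5 had 0.49. Slc3a1 had r = 0.59 and the steepest slope of the 3 most similar genes, 0.103 ± 0.0081 log10 units per SD (SE). Slc35c1, which brings GDP-fucose into the Golgi, had r = 0.53, Slc37a1 had 0.51 and Slc10a2 had 0.43. Lower were Slc66a2 (r = -0.43) and Slc16a11 (r = -0.35). The second probe of Slc30a2 did not follow the score (r = -0.0725) and had r = -0.0285 with the first.

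**Figure D5:**
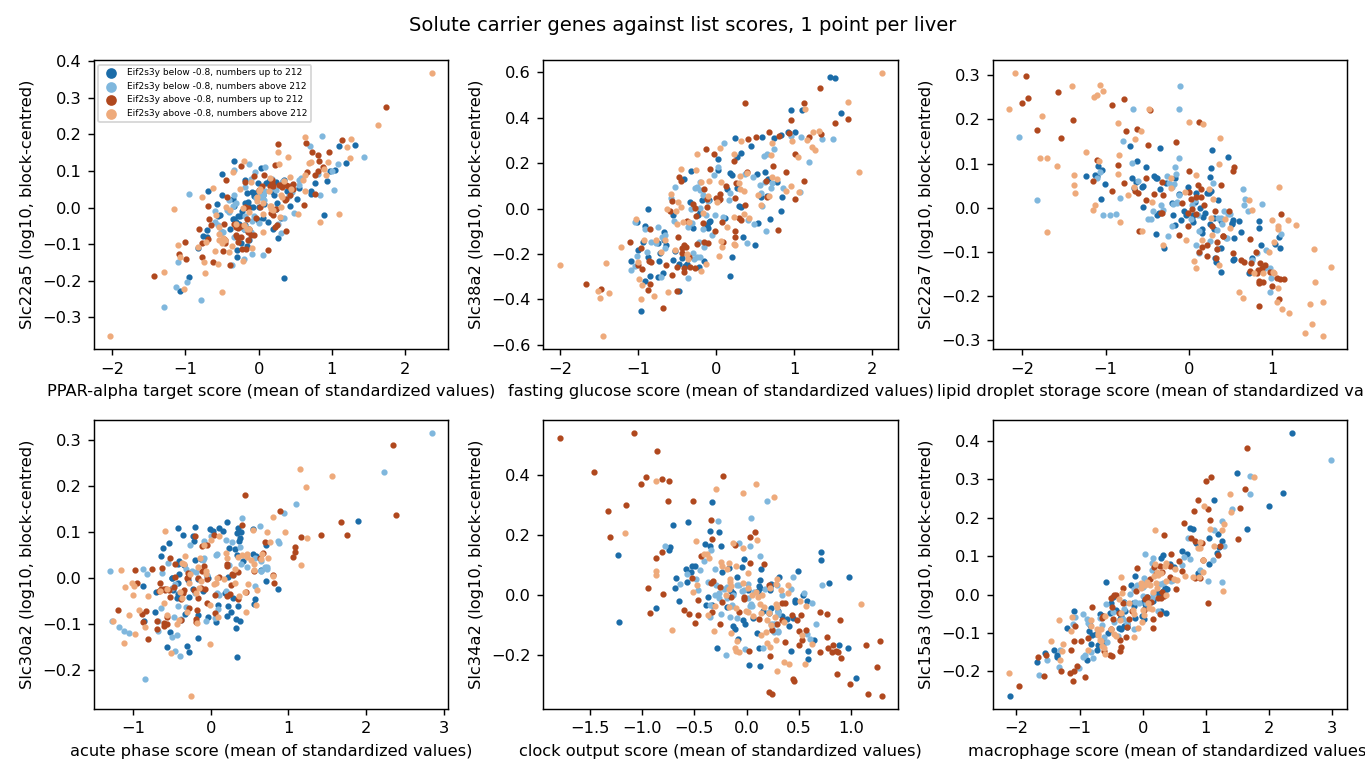
Block-centred log10 ratio of 6 solute carrier genes (y axes) against 6 list scores (x axes, mean of standardized values), 1 point per liver coloured by block. The clouds rise for Slc22a5 (r = 0.74), Slc38a2 (0.78), Slc30a2 (0.60) and Slc15a3 (0.90) and fall for Slc22a7 (-0.74) and Slc34a2 (-0.60).

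The clock output score (9 of 10 genes) was followed by 35 solute carrier probes, against 5.66% of all probes, with 17 positive (2.56% of all) and 18 negative (3.1%), or 23 and 16 on ranks. Higher with it were Slc9a3r1, a scaffold protein and no transporter (r = 0.59), the glutamine carrier Slc38a3 (r = 0.44) and Slc25a13 (r = 0.41). Lower were the phosphate carrier Slc34a2 (r = -0.60, slope -0.0935 ± 0.0071), the lactate and ketone carrier Slc16a1 (r = -0.58, -0.70 to -0.49 within blocks, slope -0.0736 ± 0.0060) and its relative Slc16a6 (r = -0.44). With the first principal component as a covariate 19 probes passed, against 2.53% of all probes. Slc34a2 (-0.56), Slc16a1 (-0.61), Slc16a6 (-0.39), Slc9a3r1 (0.59) and Slc38a3 (0.40) were among the 19, but not Slc25a13 (0.24).

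Clock proteins are known to bind the E-box CACGTG, which reads the same on both strands. RefSeq promoters (GRCm38.p6, 250 bases before to 50 after the gene's start) were at hand for 207 of the 260 genes. The E-box was present in 11.8% of 272 solute carrier promoters, against 7.15% of 32851 promoters in all. Of the 35 genes that followed the clock score, 26 had a promoter and 4 of these held the E-box (15.4%), against 30 of the 207 solute carrier genes with a promoter (14.5%). The 4 were Slc16a1, which ran against the score, and Slc22a4, Slc25a13 and Slc43a1, which ran with it. With the first principal component as a covariate, Slc43a1 fell from r = 0.38 to 0.19 and Slc25a13 from 0.41 to 0.24, and both missed the size limit. Slc16a1 (-0.61) and Slc22a4 (0.46) passed with it. The promoters of Slc16a1, Slc25a13 and Slc43a1 are printed, but not that of Slc22a4, with the E-box in capitals to show where the match lies. The match starts 200 bases before the gene's start in Slc16a1 (chr3:104638414-104638713, plus strand), 125 in Slc25a13 (chr6:6217124-6217423, minus strand) and 64 in Slc43a1 (chr2:84840073-84840372, plus strand).
Slc16a1: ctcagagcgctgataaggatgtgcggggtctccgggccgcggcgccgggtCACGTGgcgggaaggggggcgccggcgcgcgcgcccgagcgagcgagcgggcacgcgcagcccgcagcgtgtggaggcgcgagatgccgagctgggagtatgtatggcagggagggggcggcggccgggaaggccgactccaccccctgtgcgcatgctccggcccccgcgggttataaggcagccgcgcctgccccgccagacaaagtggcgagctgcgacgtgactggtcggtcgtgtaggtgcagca
Slc25a13: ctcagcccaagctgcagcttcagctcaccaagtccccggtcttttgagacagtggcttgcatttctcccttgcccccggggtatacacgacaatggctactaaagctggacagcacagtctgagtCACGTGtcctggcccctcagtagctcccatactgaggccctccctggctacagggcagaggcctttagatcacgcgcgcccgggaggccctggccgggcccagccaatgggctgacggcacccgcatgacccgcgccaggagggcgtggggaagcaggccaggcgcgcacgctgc
Slc43a1: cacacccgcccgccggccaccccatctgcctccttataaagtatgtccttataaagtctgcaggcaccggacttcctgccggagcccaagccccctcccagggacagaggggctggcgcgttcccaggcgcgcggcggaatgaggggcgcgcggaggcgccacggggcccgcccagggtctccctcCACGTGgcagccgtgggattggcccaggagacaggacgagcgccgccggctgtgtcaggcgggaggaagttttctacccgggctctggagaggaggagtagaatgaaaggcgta
A match is a description of these letters and no evidence of binding. The D-box TTATGTAA (both strands) was present in 1.10% of solute carrier promoters against 0.938% of all, and the C/EBP-ATF element TGATGNAAT in 1.10% against 0.965%. The antioxidant element TGACNNNGC was present in 14.3% against 12.4%, and the metal response element TGCGCNC in 18.0% against 15.4%. The direct repeat of AGGTCA with any base between, bound by nuclear receptors, was found in 0 of the 272 and in 0.0396% of all.

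Scores of other liver cell types were treated in the same way. The macrophage score (14 of 16 genes) was followed by 56 probes, against 16.3% of all probes, with 25 positive (7.12% of all) and 31 negative (9.21%). Slc15a3 had r = 0.90 (0.88 to 0.92 within blocks, slope 0.109 ± 0.0031), Slc11a1 had 0.87 and the sodium-calcium exchanger Slc8a1 had 0.84. Slc37a2 (r = 0.72), Slc7a8 (r = 0.70) and Slc7a7 (r = 0.67) followed, and so did 1 of 2 probes of the nucleoside carrier Slc28a2 (r = 0.71, the other -0.0626). Of 5 solute carriers listed as macrophage genes, Slc11a1, Slc15a3, Slc37a2 and Slc7a7 passed, and the lysosomal nucleoside carrier Slc29a3 had r = -0.22. With the first principal component as a covariate 15 probes passed, against 3.73% of all probes, 11 of them positive and 4 negative. The 4 listed genes that had passed did so again, with 0.79, 0.80, 0.49 and 0.48. The lower genes with the largest r in size did not pass: Slco1a1 (r = -0.42), Slc25a13 (r = -0.41) and Slc43a1 (r = -0.40) had 0.167, 0.0716 and 0.0730 with the covariate, and Slc6a21 (r = -0.41) had -0.0625.

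The stellate cell and matrix score (10 of 12 genes) was followed by 74 probes, against 21.6% of all probes, with 25 positive (8.2% of all) and 49 negative (13.4%). Higher were the sugar transporter Slc2a10 (r = 0.64), Slc37a2 (r = 0.64) and Slc8a1 (r = 0.63), and lower were Slc43a2 (r = -0.55), Slc6a21 (r = -0.54) and the bile acid ligase Slc27a5 (r = -0.54). All 6 passed with the first principal component as a covariate, with 0.42, 0.42, 0.44, -0.39, -0.33 and -0.38. The endothelial score (11 of 12 genes) was followed by 36 probes, against 10.8%, with 15 positive (5.03% of all) and 21 negative (5.73%). With the covariate 7 passed, against 1.25% of all probes, 5 positive and 2 negative. The endosomal exchanger Slc9a9 (r = 0.58 in 1 of 2 probes) and the purine carrier Slc43a3 (r = 0.57) passed in both fits, and Slc25a10 (r = 0.47) did not with the covariate (0.27). Lower were Slc30a5 (r = -0.50), Slc22a7 (r = -0.47) and Slco1a1 (r = -0.45). Of these, Slc30a5 passed with the covariate (-0.30) and Slc22a7 (-0.22) and Slco1a1 (-0.14) did not.

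The bile duct score, on 6 of 10 listed genes, was followed by 7 probes, against 2.07% of all probes, with 7 positive (1.57% of all) and 0 negative (0.502%), or 12 and 8 with centring by the Eif2s3y clusters alone. They were led by Slc12a8 (r = 0.60, rho = 0.47), the sodium-glucose carrier Slc5a1 (r = 0.39, rho = 0.32) and Slco3a1 (r = 0.36, rho = 0.35). Slco3a1 missed the size limit with the first principal component as a covariate (r = 0.21), and Slc5a1 missed it on ranks. Of the solute carriers listed as bile duct genes only Slc5a1 passed, while Slc10a2 (r = -0.0930), Slc34a2 (r = 0.0953), Slc12a2 (r = -0.103) and Slc4a2 (r = 0.0268) did not. The red cell score (7 of 11 genes) was followed by 1 probe, against 0.149%, in the positive direction (0.115% of all, with 0.034% negative), that of the mitochondrial iron importer Slc25a37 (r = 0.39), whose second probe had r = 0.0726. The other listed red cell carriers had r = -0.0293 (Slc6a9), 0.0100 (Slc14a1) and 0.139 (Slc25a38). The exocrine pancreas score (4 of 11 genes) was followed by 0 solute carrier probes at the size limit, against 0.149% (0.145% positive and 0.00425% negative), although limma gave 79 an unadjusted p under 0.05, against 27.9% of all probes, and 39 an adjusted one, against 12.9%.

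The number in a mouse's title is the only label that differs between mice, and what it marks is not stated. With block as a covariate, 108 of the 291 solute carrier probes had a slope on it in limma at an adjusted p under 0.05, against 39.4% of all probes, with 56 positive (19.3% of all) and 52 negative (20.1%). The largest were Slc25a15 (r = 0.49), Slc10a6 (r = 0.48) and the monocarboxylate carrier Slc16a7 (r = 0.46) in the positive direction, and Slc66a2 (r = -0.49), Slc25a35 (r = -0.42) and Slc6a4 (r = -0.41) in the negative. Slc25a15, Slc10a6 and Slc6a4 are also among the genes that followed the fasting glucose score. So are Slc38a2, Slc25a37 and Slc25a14, which were among those picked for the number too. With the first principal component as a covariate, their r with the number was 0.31, -0.35 and -0.38. No fit on a score held the number as a covariate, so its part in these relations was not tested. Within blocks the r of Slc25a15 with the number ran from 0.0975 to 0.718 and that of Slc10a6 from 0.168 to 0.725.

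Where a gene had several probes, they often disagreed. In 21 genes with more than 1 probe, the 8 probes of the adenine nucleotide carrier Slc25a5 had a median r of 0.74 among them (-0.18 to 0.96). The next highest value was 0.40, between the probes of Slc22a13. The 3 probes of Slco1a4 had r between -0.12 and 0.18, so the values given for it are those of 1 probe. Which of such probes measures the gene was not tested.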

How the data were processed

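The authors deposited log ratios for 23562 probes on 302 arrays, read here as log10 values. Dyes are per the labels. The sources used here do not say how features were extracted or normalized. Probe names came from the array's annotation, updated to the GRCm38.p6 gene table. Probes with values in at least 90% of mice were used, without further normalization. Values at the limits of -2 and 2 occurred in 6 solute carrier probes.

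Members, lists, pairs, blocks and rules were chosen with earlier results of these data known. Genes were named by 7 parts of a rule: the 20 largest SDs, all measured pairs, the 3 largest r per score and direction, genes with separate clusters, the most similar gene of each, the extremes of each role list, and listed genes of other cells. Others mentioned were chosen after their values were seen. SD intervals came from 1000 resamplings of mice within blocks. Clusters needed a Bayesian information criterion lower by over 10, means over 3 SDs apart and at least 5% of mice. Fits used limma 3.58.1 in R 4.3.3, two-sided, and the rest Python 3.11.15 with scipy 1.17.1. The fits and the cluster search were tested on simulated data. P-values take the mouse as the unit, and the number of arrays limits precision. Mice were permuted within blocks without regard to mouse number, and the part of a shared trend on that number in the pairs was not tested.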

Additional observations from a re-analysis of the deposited data

How the results depend on the processing

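The 29 widely varying probes became 8 at a threshold of 3 times the median SD, and 26 to 31 under the other alternatives. Without centring, 11 probes had separate clusters in place of 6. The share of all probes was not counted for these alternatives. Centring by the 2 Eif2s3y clusters alone gave 50 probes for the PPAR-alpha score (15.5% of all probes) and 25 for sterol synthesis (6.44%). It gave 48 for fatty acid synthesis (19.0%), 25 for acute phase (5.69%) and 20 for bile duct (7.01%). For pancreas there was 1 (0.332%), and for mouse number there were 194 (66.9%). With the first principal component as a covariate the counts were 36 for lipid droplets (9.15% of all probes) and 18 for ATF4 (2.88%). They were 19 for clock output (2.53%), 15 for macrophage (3.73%), 43 for stellate (16.6%) and 7 for endothelial (1.25%). Bile duct had 3 (0.502%), red cell 2 (0.434%) and pancreas 1 (0.0808%). Probes also called in the main fit were 10 for ATF4, 12 for clock output, 10 for macrophage, 20 for stellate and 3 for endothelial. For PPAR-alpha 17 passed (3.80%), 10 of them called in the main fit, and for fatty acid synthesis 24 (4.61%), of which 14 were. Ranks gave 4 for bile duct (2.61% of all probes) and 6 for pancreas (1.10%). With the same covariate the sign turned for Slc7a8 with lipid droplets (-0.0503) and, with the macrophage score, for Slco1a1 (0.167), Slc25a13 (0.0716), Slc43a1 (0.0730), Slc22a12 (0.0123) and Slc26a11 (0.0601). The cause was not tested. Of 797 recomputed relations of single genes 715 kept their call, and kept direction wherever the main fit had called them. Slc3a2 with Slc7a7, not called in either, turned from r = 0.0249 to -0.0798 with the first principal component removed. A further 76 kept direction and missed the threshold, 61 of them with the first principal component as a covariate. Slco1a1 with Slco1a4 (r = -0.10) and Slc37a4 with G6pc (r = 0.084) missed it with centring by the Eif2s3y clusters. No paired analysis was possible because the labels give 1 group. Signal over background is not in the values.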
